A study of Mus musculus with 21 samples.

Results

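The collapsin response mediator proteins (CRMPs) are a family of 5 mouse genes, Crmp1, Dpysl2, Dpysl3, Dpysl4 and Dpysl5, and their RNA was followed here through motor neuron (MN) differentiation. The members were taken by gene symbol, and all 5 were found among the 55400 genes of the deposited tables. RNA-seq was performed on MN cultures derived from C57BL/6 mouse embryonic stem cells of wild-type genotype. The stages were day 4 (D4), 8 hours later (D4H8), day 5 (D5) and day 6 (D6), with 3 biological replicates each. The stages D4H8, D5 and D6 were also profiled after 1 day of GSKJ4, an inhibitor of the H3K27 demethylases Kdm6a and Kdm6b, which gave 7 groups and 21 libraries. GSKJ4 was present from 8 hours after day 3 to D4H8, from D4 to D5, or from D5 to D6, and no GSKJ4 group exists at D4.

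All groups, the controls included, started from embryoid bodies of stem cells that had been grown on mitotically arrested embryonic fibroblasts. All received 1 µM retinoic acid and 0.5 µM of the Sonic hedgehog agonist SAG from day 2, and the medium given at D5 held neither. For the hypaxial motor column fate, 5 µM of the Notch pathway inhibitor DAPT was added at D4 and again in the D5 medium. The steps from D4 to D4H8 and from D5 to D6 thus coincide with these changes of medium, and the 2 cannot be told apart. The GSKJ4 dose was not given in the sources used here. Each library is a whole culture of cells at mixed steps of differentiation, so a change in the share of a cell type and a change in RNA per cell cannot be told apart. The study describes the replicates of each stage as biologically independent experiments, and p-values measure the spread between them.

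CRMPs are cytosolic phosphoproteins related in sequence to the pyrimidine-degrading enzyme dihydropyrimidinase. They bind tubulin and other cytoskeletal proteins, and they relay Semaphorin 3A signals from neuropilin and plexin receptors to the growth cone, where phosphorylation by Cdk5 and Gsk3 lowers their binding to tubulin. In the developing nervous system they are known for axon outgrowth, guidance and neuronal polarity.

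The 5 genes lie at separate places in the genome (GRCm38, GENCODE M21 genes). Crmp1 lies on the plus strand of chr5:37241940-37292133, and Dpysl5 (CRMP5) on the same strand of that chromosome at chr5:30711564-30799375. Dpysl2 (CRMP2), the member best known for binding tubulin dimers, lies on the minus strand of chr14:66802864-66868688. Dpysl4 (CRMP3) lies on the plus strand of chr7:139086001-139102704, and the position of Dpysl3 (CRMP4) is given with its values.

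Because the members are paralogs, their coding sequences were compared first. Identity between pairs of coding sequences ran from 61.4% (Dpysl4 and Dpysl5) to 73.8% (Crmp1 and Dpysl2). The longest run of bases shared by any pair was 29 bases, below the 75 bases that the authors required of a read, so no read of that length could match 2 members in full. The runs of 29 bases, shared by Dpysl4 with Crmp1 and with Dpysl2, lie in the stretch shown here for 4 members as 77 aligned bases, 5′ to 3′, from GENCODE transcripts. Capitals mark the 37 positions at which all 4 carry the same base, and the differences show how far reads could tell the members apart.
Crmp1: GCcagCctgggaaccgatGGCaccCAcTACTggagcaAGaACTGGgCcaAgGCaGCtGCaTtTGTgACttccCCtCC
Dpysl2: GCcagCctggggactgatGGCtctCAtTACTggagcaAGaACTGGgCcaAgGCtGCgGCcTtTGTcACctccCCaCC
Dpysl4: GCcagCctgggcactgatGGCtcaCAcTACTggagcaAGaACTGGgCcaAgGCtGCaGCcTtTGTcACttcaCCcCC
Dpysl5: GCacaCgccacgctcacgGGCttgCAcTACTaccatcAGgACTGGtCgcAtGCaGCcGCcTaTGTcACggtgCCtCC
Over this window 67 bases of Dpysl4, 66 of Dpysl2 and 47 of Dpysl5 equalled those of Crmp1. The window spans coding bases 1183 to 1259 of Crmp1, 841 to 917 of Dpysl2, 904 to 980 of Dpysl4 and 820 to 896 of Dpysl5.

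Promoter sequences (250 bases before to 50 after a RefSeq start, GRCm38.p6) were found for Crmp1, which has 2 starts there, and for Dpysl5. They are shown because the RefSeq table held the promoters of these members. Capitals mark matches to GGGCGG, the GC box, on either strand, which also read as CCGCCC. Matches that overlap run together.
Crmp1 first start, plus strand, chr5:37241808-37242107: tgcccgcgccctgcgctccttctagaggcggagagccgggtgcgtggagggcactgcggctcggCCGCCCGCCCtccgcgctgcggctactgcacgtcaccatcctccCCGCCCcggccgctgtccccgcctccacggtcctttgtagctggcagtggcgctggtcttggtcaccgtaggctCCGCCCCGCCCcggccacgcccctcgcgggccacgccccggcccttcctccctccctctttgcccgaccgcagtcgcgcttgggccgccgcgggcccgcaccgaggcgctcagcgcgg
Crmp1 second start, plus strand, chr5:37245514-37245813: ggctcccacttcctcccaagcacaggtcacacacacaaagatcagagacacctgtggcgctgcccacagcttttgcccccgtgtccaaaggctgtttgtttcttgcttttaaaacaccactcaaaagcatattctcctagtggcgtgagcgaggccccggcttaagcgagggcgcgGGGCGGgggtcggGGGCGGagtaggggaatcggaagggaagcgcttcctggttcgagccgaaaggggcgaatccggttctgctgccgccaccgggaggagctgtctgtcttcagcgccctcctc
Dpysl5 start, plus strand, chr5:30711314-30711613: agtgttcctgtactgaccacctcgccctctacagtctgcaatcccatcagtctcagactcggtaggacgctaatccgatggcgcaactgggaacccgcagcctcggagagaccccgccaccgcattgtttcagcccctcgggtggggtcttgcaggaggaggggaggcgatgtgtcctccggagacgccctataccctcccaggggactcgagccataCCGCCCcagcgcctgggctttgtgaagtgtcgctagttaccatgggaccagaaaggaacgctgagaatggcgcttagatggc
The first Crmp1 promoter held 5 matches, the second 2 and the Dpysl5 promoter 1, and 35.7% of 32851 promoters of this length held at least 1. The GC content of the first Crmp1 promoter was 77.0%, above that of 97.6% of promoters, against 61.0% for the other 2 windows, which lay above 73.1%. The E-box CANNTG, searched on both strands, had 0 matches in the first Crmp1 promoter and 1 in each of the other 2 windows, and 72.3% of promoters held it. CCAAT, held by 37.4% of promoters, had 0 matches in the 3 windows. The same was true of the TATA box TATAAA (13.6% of promoters), the homeodomain core TAATTA (5.3%) and the Onecut core ATCAAT (7.5%), all on both strands.

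Counted reads per library ran from 14982115 to 34383842, and member counts from 183 to 39115, which leaves a counting error of 7.39% at the lowest and 0.506% at the highest. The label calls every sample a differentiated MN, and the markers were read against it. The summed CPM of 7 MN markers ranged from 21.8 to 50.6 at D4 and from 1260 to 1454 at D6, while that of 6 proliferation markers ranged from 3409 to 3769 at D4 and from 281 to 720 at D6. D4 cultures therefore carried cycling-cell markers at high levels and MN markers at low ones. Over all genes, D4H8+GSKJ4 replicate 2 stood apart from its group, with a chi-square averaging 117 per gene against replicate 1 and 96.7 against replicate 3, beside 37.4 between those 2. In several members it was D4H8+GSKJ4 replicate 1 that stood apart, and results are given with and without it. That library was picked from the members' own values, so further calls made without it follow in part from the choice. D5+GSKJ4 replicate 2 had 39381 genes at 0, against 29339 to 32805 in every other library.

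Crmp1 RNA was scarce at D4 and among the most abundant of the family at D6. Its FPKM, a level scaled for gene length and for the reads of the library, was 2.18, 2.87 and 3.86 in the D4 libraries. It was 16.32, 12.13 and 9.69 at D4H8, and 125.83, 81.07 and 87.77 at D5. At D6 it reached 331.28, 245.67 and 235.18. Every library of each stage lay above every library of the stage before. Crmp1 overlaps Evc on the opposite strand, the counting strand was not stated, and reads of the overlap could not be told apart. The highest Evc count in any of the 21 libraries was 742, and Crmp1 had 349, 346 and 441 counts in the D4 libraries.

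Dpysl3, on the minus strand of chr18:43320984-43438286, codes for a protein that interacts with actin and tubulin. It was the most abundant member at each stage by mean FPKM. It was at 15.94, 19.12 and 17.58 FPKM at D4 and at 53.50, 40.37 and 33.89 at D4H8. It rose to 184.07, 163.65 and 166.69 at D5 and 347.63, 318.59 and 287.04 at D6. The D6 range overlapped that of Crmp1, but within each of the 3 D6 libraries Dpysl3 was above Crmp1.

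Dpysl5, the most divergent member in sequence, which binds tubulin and restrains neurite outgrowth, was second to Dpysl3 at D4. Its FPKM was 11.83, 13.42 and 17.03 at D4, and 31.99, 22.38 and 24.44 at D4H8. It was 66.37, 51.18 and 59.28 at D5, and 149.02, 113.60 and 105.74 at D6. From D5 on it ranked behind Dpysl3 and Crmp1, with no overlap with Crmp1 above or Dpysl4 below it.

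Dpysl4 and Dpysl2 were the least abundant members at D5 and D6. Dpysl4 was at 3.78, 5.55 and 5.35 FPKM at D4, and at 21.11, 15.39 and 12.53 at D4H8. It was at 31.67, 29.22 and 35.10 FPKM at D5, and at 62.18, 52.74 and 47.26 at D6. Its order against Dpysl2 was not separated by the ranges at D4H8, D5 or D6, although Dpysl4 was the higher in all 3 D6 libraries.

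Dpysl2 had the flattest course. It was at 5.79, 6.89 and 9.47 FPKM at D4, and at 14.46, 11.81 and 15.77 at D4H8. It was at 34.45, 25.28 and 26.58 FPKM at D5, and at 52.66, 38.84 and 38.24 at D6. At D4H8 the ranges of Dpysl4, Dpysl2 and Crmp1 overlapped, and Dpysl2 was above Crmp1 in only 1 of the 3 libraries.

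**Figure D1:**
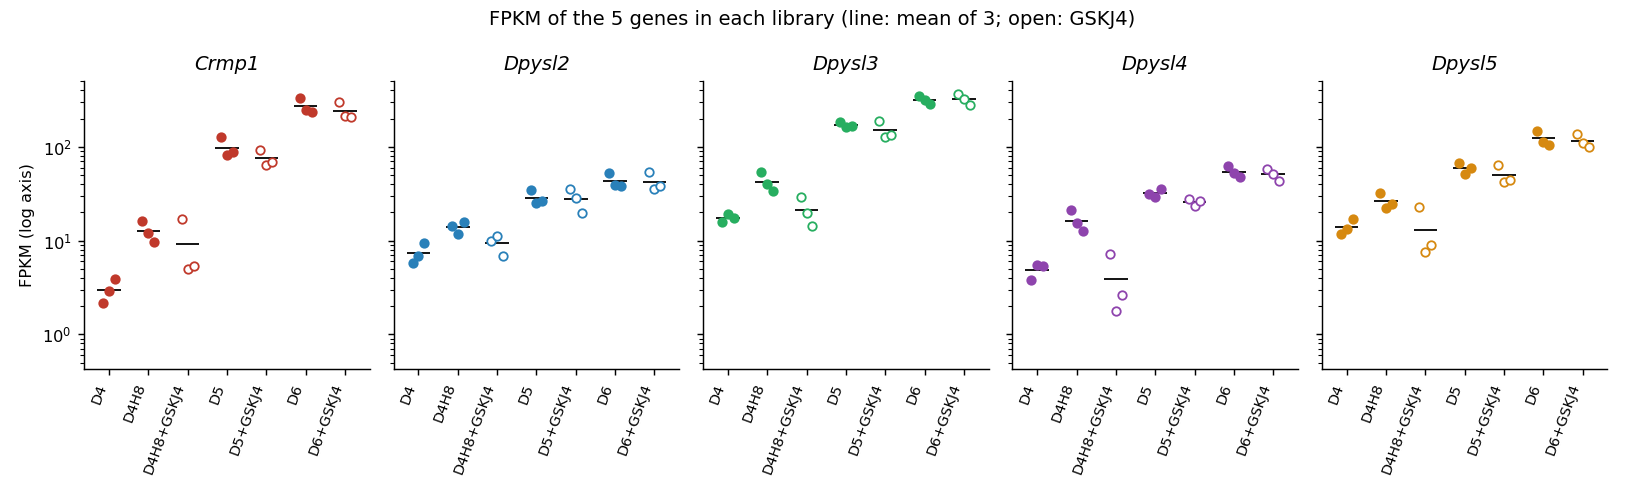
FPKM of each of the 5 genes (log axis) in each of the 21 libraries, by group; filled points are untreated, open points GSKJ4-treated, and lines are means of 3. The untreated ranges climb from D4 to D6 without overlap in each gene, and the open points at D4H8 lie lowest for Dpysl4, at 1.79 to 7.21 FPKM.

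The first question was how much each member gained between stages. All 5 genes rose at each step (edgeR quasi-likelihood test, 1 fit over 12 untreated libraries, Benjamini-Hochberg adjustment over 17519 genes). The share of all tested genes called higher was 4.06% from D4 to D4H8, 17.2% from D4H8 to D5, 19.2% from D5 to D6 and 32.9% from D4 to D6. The CPM of all 5 was also without overlap at each step, as it was, upwards, for 15.9%, 24.2% and 21.6% of tested genes at the 3 successive steps. The median log2 fold change of the members was 1.24, 1.17 and 1.01 at the 3 steps, beside −0.02, 0.01 and −0.02 over all tested genes.

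From D4 to D6, Crmp1 rose 97.1-fold (log2 fold change 6.60 ± 0.31 SE, adjusted p = 8.77e-10). Dpysl3 rose 19.0-fold (log2 4.25 ± 0.20, adjusted p = 7.13e-10) and Dpysl4 11.7-fold (log2 3.55 ± 0.21, adjusted p = 6.74e-09). Dpysl5 rose 9.23-fold (log2 3.21 ± 0.21) and Dpysl2, the least, 6.22-fold (log2 2.64 ± 0.20). The 95% confidence interval of Crmp1 on the log2 scale, 5.93 to 7.28, did not reach that of any other member.

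The steps at which the gain was made differed between members. Crmp1 rose 4.21-fold from D4 to D4H8, 7.73-fold to D5 and 2.99-fold to D6. Dpysl4 made its largest step first, 3.27-fold to D4H8, followed by 1.95-fold to D5 and 1.84-fold to D6. Dpysl3 rose 2.36-fold, 4.02-fold and 2.01-fold over the same steps.

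Dpysl5 rose 1.82-fold, 2.25-fold and 2.26-fold, and Dpysl2 1.85-fold, 2.06-fold and 1.63-fold. These first steps were the weakest calls, with adjusted p = 0.0189 for Dpysl5 and 0.018 for Dpysl2. Both missed the threshold when D4 replicate 1, D4 replicate 2 or D4H8 replicate 1 was left out, with adjusted p from 0.0882 to 0.128, which leaves 3 of 5 members called, and Dpysl2 also without D4H8 replicate 3 (adjusted p = 0.0603). The D6 step of Dpysl2 (adjusted p = 0.0119) was likewise lost without D5 replicate 2, D5 replicate 3 or D6 replicate 1, at adjusted p from 0.0609 to 0.068. Crmp1, Dpysl3 and Dpysl4 kept their calls at every step in each of the fits that left out 1 library. In one fit over all 21 libraries, however, Dpysl4 missed the threshold at its D5 step (adjusted p = 0.0503) and its D6 step (adjusted p = 0.0679).

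Whether the members rose by the same factor was asked with ratios within a library, where library scaling cancels. The log2 CPM difference of each of 10 pairs was tested over the 4 stages by an exact permutation test over all 369600 arrangements, adjusted over the 10 pairs. All 10 ratios changed over the stages. With the replicate number as a block, 8 of 10 passed, and Dpysl2 to Dpysl4 (adjusted exact permutation p = 0.0729) and Dpysl2 to Dpysl5 (adjusted exact permutation p = 0.0521) did not. The ratio of Crmp1 to each of the other 4 had p = 6.49e-05, the smallest the exact permutations can give (adjusted p = 0.000162).

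Crmp1 gained 3.96 log2 units on Dpysl2 between D4 and D6, 3.40 on Dpysl5, 3.05 on Dpysl4 and 2.35 on Dpysl3. The log2 CPM ratio of Crmp1 to Dpysl5 was −2.33 ± 0.15 at D4, −1.13 ± 0.24 at D4H8, 0.65 ± 0.18 at D5 and 1.07 ± 0.02 at D6 (SD, n = 3). It is not a ratio of levels, since CPM is not per length, but its movement is that of the levels.

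Among the remaining pairs, Dpysl2 to Dpysl4 was the nearest to the threshold. Its log2 ratio moved from 0.18 ± 0.26 at D4 to −0.60 ± 0.47 at D4H8 and −0.73 ± 0.10 at D6 (SD, n = 3, exact permutation p = 0.0463, adjusted p = 0.0463). Dpysl4 against Dpysl5 was highest at D4H8, going from −1.83 ± 0.22 at D4 to −1.002 ± 0.23 at D4H8, −1.18 ± 0.17 at D5 and −1.48 ± 0.08 at D6 (SD, n = 3, exact permutation p = 0.00214, adjusted p = 0.00268).

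**Figure D2:**
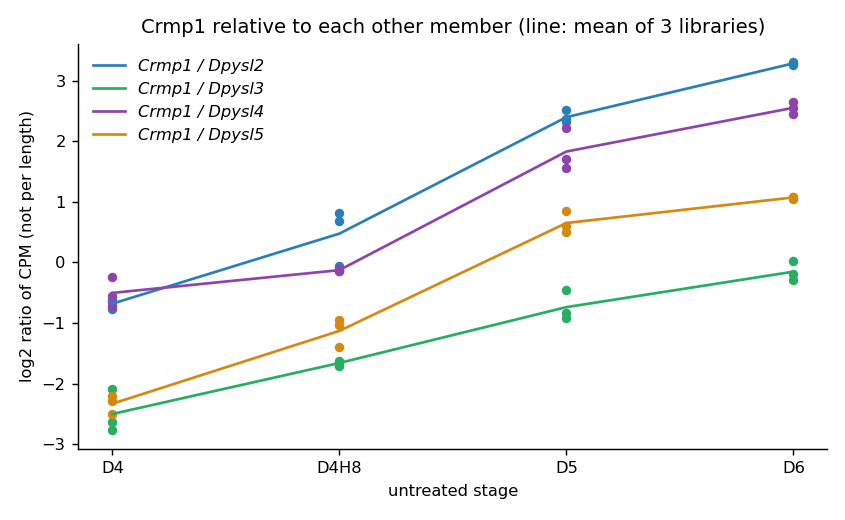
Log2 ratio of the CPM of Crmp1 to that of each other member in each untreated library, by stage; points are libraries and lines join means of 3. All 4 lines climb from D4 to D6, by 2.35 against Dpysl3 and by 3.96 against Dpysl2; the height of a line depends on gene lengths and is not compared between pairs.

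The make-up of the family, as each member's share of the summed FPKM, turned over between D4 and D6. The sum was 46.9 ± 6.94 FPKM at D4, 112 ± 22.2 at D4H8, 389 ± 47.6 at D5 and 809 ± 120 at D6 (SD, n = 3). Crmp1 contributed 6.25% at D4, 11.3% at D4H8, 25.0% at D5 and 33.3% at D6 (exact permutation p = 6.49e-05, adjusted over 5 members p = 0.000162). Dpysl5 went from 29.98% at D4 to 23.5% at D4H8 and then 15.1% at both D5 and D6 (exact permutation p = 0.000649, adjusted p = 0.00108).

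Dpysl2 declined from 15.6% at D4 to 5.33% at D6 (exact permutation p = 0.00136, adjusted p = 0.0017), although its own level rose. Dpysl4 peaked at D4H8, with 14.5% against 10.4% at D4 and 6.69% at D6 (exact permutation p = 6.49e-05, adjusted p = 0.000162). Dpysl3 held between 37.8% and 44.2%, and its share did not pass the test (exact permutation p = 0.0759). The share of Dpysl3 in single untreated libraries ran from 33.0% to 46.7%.

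**Figure D3:**
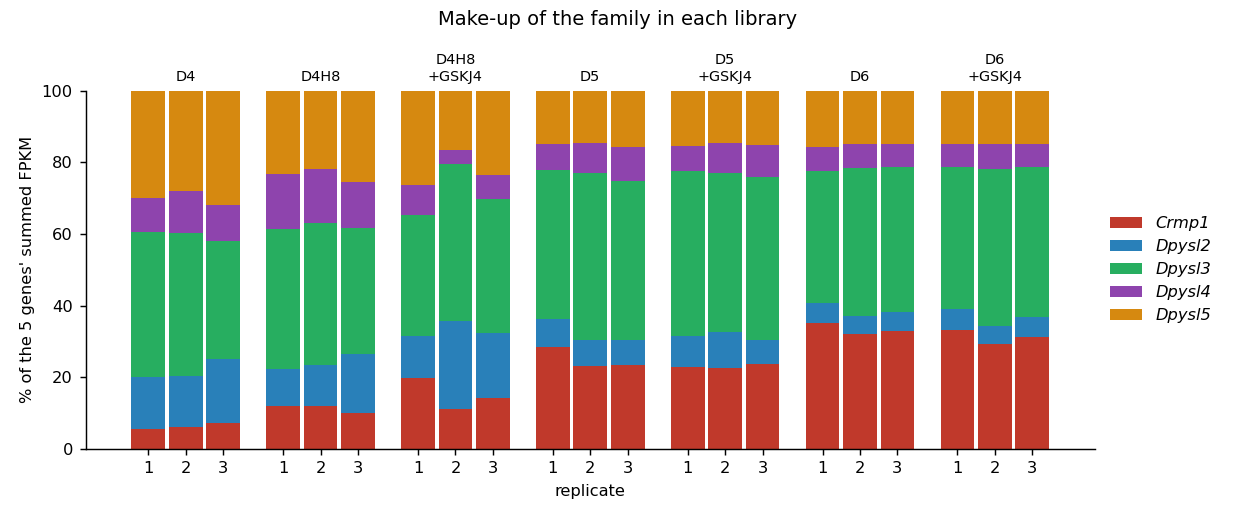
Stacked bars of each gene's percentage of the summed FPKM of the 5 genes in each of the 21 libraries, grouped by stage and treatment. The Crmp1 part widens from 6.25% at D4 to 33.3% at D6 while those of Dpysl2 and Dpysl5 narrow, and the Dpysl4 part is smaller in D4H8+GSKJ4 than in D4H8 libraries.

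Over the untreated stages the family total rose together with the RNA of neuronal markers. The summed CPM of 11 pan-neuronal markers ranged from 156 to 265 at D4, 820 to 1521 at D4H8, 7924 to 8950 at D5 and 15537 to 18897 at D6. In D4H8+GSKJ4 replicates 2 and 3 the marker sums, 581 and 348, were above those of D4. Their family totals, 45.17 and 38.07 FPKM, were not above the D4 range of 39.52 to 53.29. In D4H8+GSKJ4 replicate 1 both were above D4, with a marker sum of 1091 and a family total of 85.47 FPKM. All 11 markers rose from D4 to D6, with a median log2 fold change of 5.99, so Crmp1 rose by more than this median and the other 4 members by less. The part that neuronal content had in any member's change was not tested.

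**Figure D4:**
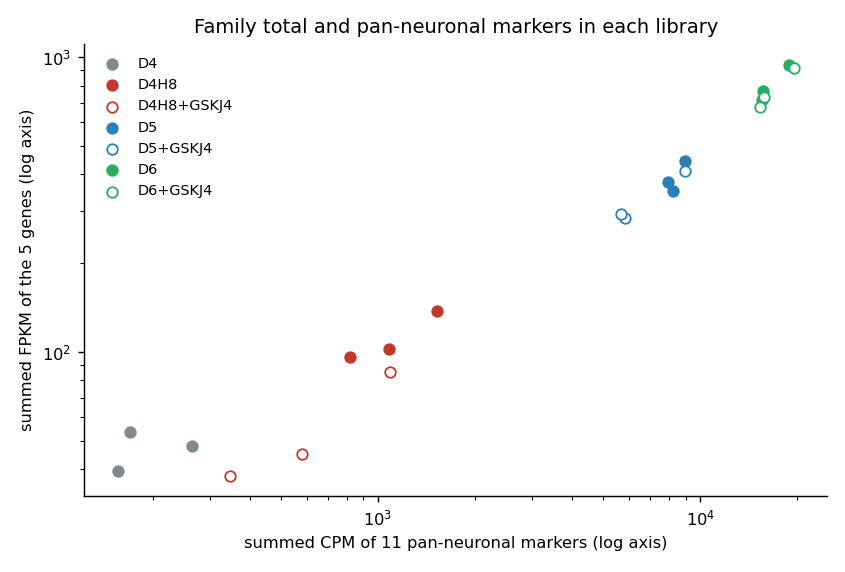
Summed FPKM of the 5 genes against the summed CPM of 11 pan-neuronal markers (both log axes) in each of the 21 libraries; open points are GSKJ4-treated. Untreated libraries line up by stage from D4 at lower left to D6 at upper right. D4H8+GSKJ4 replicates 2 and 3, with marker sums of 581 and 348, lie lowest of the D4H8 points on both axes.

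The GSKJ4 groups address whether member RNA changes when the demethylases are inhibited before each stage. At D4H8 the largest difference was in Dpysl4, whose FPKM was 7.21, 1.79 and 2.60 with GSKJ4 against 21.11, 15.39 and 12.53 without. The highest treated library was thus below the lowest untreated one. Dpysl4 fell 4.43-fold (log2 −2.15 ± 0.46 SE, adjusted p = 0.038, edgeR quasi-likelihood test on 6 libraries) and was the 1 of 5 members called lower, where 1.85% of 16269 tested genes were.

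Dpysl3 was at 28.84, 19.80 and 14.27 FPKM with GSKJ4, all below the 33.89 to 53.50 without it. Its log2 difference was −1.06 ± 0.29 (adjusted p = 0.0684). Dpysl2 was at 9.94, 11.11 and 6.90, all below the untreated 11.81 to 15.77, with a log2 difference of −0.61 ± 0.24 (adjusted p = 0.158). With Dpysl4, 3 of 5 members were thus lower without overlap, as were 14.3% of tested genes.

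Dpysl5 and Crmp1 overlapped between treated and untreated libraries, through treated replicate 1. Dpysl5 was at 22.55, 7.47 and 8.92 FPKM with GSKJ4 against 31.99, 22.38 and 24.44 without (log2 difference −1.08 ± 0.37, adjusted p = 0.117). Crmp1 was at 16.93, 5.00 and 5.38 against 16.32, 12.13 and 9.69 (log2 difference −0.54 ± 0.43, adjusted p = 0.46, 95% interval −1.51 to 0.42). Replicates 2 and 3 of the treated group were below every untreated library in both genes.

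The calls at D4H8 therefore turned on single libraries. Treated replicate 1 was singled out by its member values, so calls gained without it follow in part from that choice. Without treated replicate 1, 4 of 5 members were called lower, as were 348 of 16744 tested genes: Crmp1 at −1.32 (adjusted p = 0.0427), Dpysl3 at −1.33 (adjusted p = 0.0497), Dpysl4 at −2.94 (adjusted p = 0.00677) and Dpysl5 at −1.71 (adjusted p = 0.0132). The call of Dpysl4 was lost without any 1 of the 3 untreated libraries or without treated replicate 3, at adjusted p from 0.0822 to 0.167, and without treated replicate 2 it was kept while Dpysl2 passed too (adjusted p = 0.0459). The direction was lower for all 5 members in each of these fits. DESeq2 called Dpysl3, Dpysl4 and Dpysl5 lower, at adjusted p = 0.00748, 1.10e-05 and 0.0267, where it called 838 of 15456 genes lower. With the replicate number as a block in edgeR, all members but Dpysl2 were called lower, as were 1039 of 16269 genes. Crmp1 was then just under the threshold (adjusted p = 0.049996). Same-numbered libraries did not all deviate together at this stage, so the block is given as an alternative.

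The marker sums at D4H8 moved as well. The 7 MN markers summed to 35.7 to 78.8 CPM with GSKJ4 against 182 to 203 without, and the 6 MN progenitor markers to 225 to 415 against 695 to 949. Of 6 tested MN markers, 3 were called lower (Chat, Isl1 and Lhx3, median of the list −1.87 on the log2 scale), and of 6 progenitor markers 3 as well (Hes5, Nkx6-1 and Olig2, median −1.52). Isl1 and Olig2 kept their calls in each of the 6 fits that left out 1 library, and the other 4 did not. The 6 proliferation markers summed to 2002 to 3331 CPM with GSKJ4 against 3293 to 3384, and 1 of them, Pcna, was called lower. The 11 pan-neuronal markers summed to 1091, 581 and 348 CPM in treated replicates 1 to 3 against 1521, 1081 and 820, so that treated replicate 1 had the highest sum of its group as it did for Crmp1, Dpysl3, Dpysl4 and Dpysl5. None of the 11 pan-neuronal genes passed the test, with a median log2 difference of −0.85.

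The sums of fibroblast and pluripotency markers had higher medians with GSKJ4, with overlap. The 7 fibroblast markers summed to 90.2 to 221 CPM with GSKJ4 against 56.0 to 110 without, and the 6 pluripotency markers to 133 to 310 against 54.6 to 250. The other lists went both ways: the median sum went from 14.0 to 20.1 CPM for endothelium and blood and from 48.7 to 51.9 for glia, and from 18.4 to 10.9 for interneurons and 60.1 to 47.2 for endoderm. The sums of interneuron markers and of endothelial and blood markers were at most 37.3 and 30.8 CPM in any library. None of the 5 fibroblast markers tested and none of the 6 pluripotency markers was called. The part of these shifts in the lower member levels was not tested.

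At D5 the ranges with and without GSKJ4 overlapped for 4 of the 5 members. The 7 MN markers summed to 443 to 525 CPM with it against 707 to 841 without, and the part of this in the member levels was not tested. Crmp1 was at 93.17, 64.01 and 69.53 FPKM with it against 125.83, 81.07 and 87.77 without (log2 difference −0.42 ± 0.22, edgeR unadjusted p = 0.0908). The study, with its own test and threshold, lists Crmp1 among the Kdm6b targets lowered by GSKJ4 at D5. It also reports late Kdm6b binding at Crmp1, with less H3K27me3 and more H3K27ac and H3K4me1 at D6. The RNA values here do not address that binding or those marks. Dpysl4 was at 27.49, 23.32 and 26.33 against 31.67, 29.22 and 35.10, the only 1 of the 5 without overlap, as 5.13% of tested genes were in that direction (log2 difference −0.36 ± 0.15, adjusted p = 0.976). None of the 5 was called by edgeR, where 0% of tested genes were called lower, nor by DESeq2, and 1 of 5, Dpysl4, had an unadjusted p under 0.05, as did 390 of 16309 genes in the same direction.

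Dpysl3 was at 189.00, 126.49 and 134.13 FPKM with GSKJ4 at D5, and Dpysl5 at 63.72, 41.80 and 44.72. Dpysl2 was at 35.58, 28.40 and 19.90. All 3 overlapped the untreated values, and the 95% intervals of their log2 differences were −0.65 to 0.19, −0.73 to 0.18 and −0.61 to 0.44.

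At D6 the treated and untreated values overlapped for all 5 members. Crmp1 was at 303.86, 215.53 and 210.21 FPKM with GSKJ4 against 331.28, 245.67 and 235.18 without. Dpysl3 was at 364.53, 320.44 and 282.43, and Dpysl5 at 137.86, 109.73 and 100.14. Dpysl4 was at 58.69, 51.62 and 43.42, and Dpysl2 at 53.54, 35.84 and 38.46. None was called by edgeR, where 0% of genes were called lower, nor by DESeq2, and none had an unadjusted p under 0.05.

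At D6, equally numbered treated and untreated libraries deviated together, and Crmp1, Dpysl4 and Dpysl5 were lower with GSKJ4 in 3 of 3 such pairs. So were the same genes at D5, and Dpysl2, Dpysl3, Dpysl4 and Dpysl5 at D4H8. The share of all genes lower in every pair was not counted, so no weight is put on this. With the replicate number as a block, the Crmp1 difference of −0.17 ± 0.03 on the log2 scale was called lower (adjusted p = 0.00556), as were 209 of 16301 genes, whereas the fit without the block gave −0.16 ± 0.23 (adjusted p = 1). The other 4 members were not called with the block, with differences from −0.09 to 0.01.

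**Figure D5:**
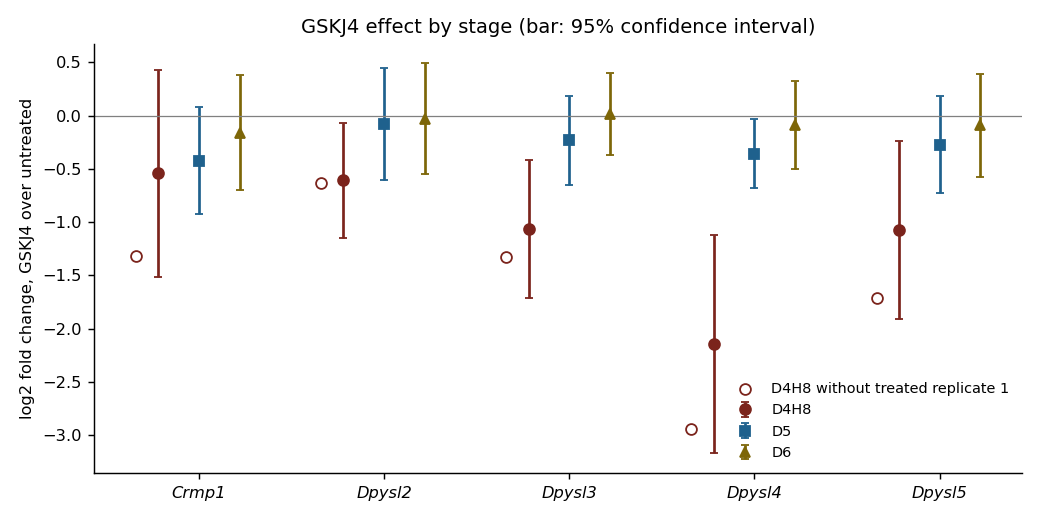
Log2 fold change of each gene between GSKJ4-treated and untreated libraries at D4H8, D5 and D6, with 95% confidence intervals. Open circles give the D4H8 value without treated replicate 1, a library picked from the members' own values. Dpysl4 at D4H8 lies lowest, at −2.15, and the intervals at D6 all include 0.

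The change of the GSKJ4 effect with stage was tested itself, on 18 libraries. For Dpysl4 the effect at D6 was 2.07 ± 0.49 log2 units above that at D4H8 (adjusted p = 0.0591), and the effect at D5 was 1.78 ± 0.49 above it (adjusted p = 0.167). None of the 5 members was called by edgeR in either comparison, where 0.552% and 0.232% of tested genes were called higher. At an unadjusted p under 0.05 there were 3 and 2 members higher, as were 1294 and 905 of 18103 genes. DESeq2 called 1 member in each, Dpysl4 (adjusted p = 0.00375 and 0.032), where it called 291 and 158 of all genes higher. Without treated D4H8 replicate 1, edgeR called Dpysl4 in both comparisons (adjusted p = 0.000229 and 0.000635) and Dpysl5 in the D6 one (adjusted p = 0.0249). In these fits 234 and 159 of all tested genes were called higher, and the library left out was picked from the members' own values. Over all fits that left out 1 library, the edgeR adjusted p of Dpysl4 reached 0.207 and 0.534 in the 2 comparisons. Of 24 alternative fits, 6 and 4 called it. Between D5 and D6 the effects differed by 0.07 to 0.29 log2 units, and the 95% interval included 0 for each of the 5 members.

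Averaged over the 3 stages, Dpysl4 fell by 0.87 on the log2 scale with GSKJ4 (SE 0.20, adjusted p = 0.0272), the 1 of 5 called lower where 1.09% of tested genes were. The averages of the others ran from −0.49 for Dpysl5 to −0.25 for Dpysl2, with adjusted p from 0.139 to 0.43. Without treated D4H8 replicate 1, Crmp1 (adjusted p = 0.0356) and Dpysl5 (adjusted p = 0.0107) were called beside Dpysl4. In that fit 389 of all tested genes were called lower, and the library left out was picked from the members' own values. The call of Dpysl4 was lost in 10 of the 18 fits that left out 1 library, at adjusted p up to 0.0768.

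Whether the members differed in their response was asked with the same 10 ratios, exchanging treated and untreated libraries within stage. The log2 CPM ratio of Crmp1 to Dpysl4 at D4H8 was −0.14, −0.11 and −0.13 in untreated libraries and 1.46, 1.71 and 1.28 in treated ones. The ratio of Dpysl3 to Dpysl4 was 1.48, 1.53 and 1.58 without GSKJ4 and 2.14, 3.60 and 2.59 with it. In both pairs the treated and untreated libraries did not overlap at D4H8, and Dpysl4 lost ground also in treated replicate 1. The same absence of overlap held for Dpysl2 to Dpysl4 and for Dpysl4 to Dpysl5. It was not particular to Dpysl4: Crmp1 to Dpysl5 was at −1.04, −0.95 and −1.40 without GSKJ4 and −0.48, −0.64 and −0.79 with it. The remaining pairs overlapped. The pairs that include Dpysl4 share the change of that gene and are not separate results. With 3 against 3 libraries the smallest two-sided exact permutation p is 0.1. The share of other gene pairs without overlap was not counted, so no weight is put on this absence of overlap.

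Averaged over stages, the ratio of Dpysl3 to Dpysl4 was 0.48 log2 units higher with GSKJ4 (exact permutation, two-sided p = 0.0123, adjusted p = 0.113). The ratio of Dpysl2 to Dpysl4 was 0.66 higher (exact permutation p = 0.027, adjusted p = 0.113) and that of Dpysl4 to Dpysl5 0.39 lower (mean difference −0.39, exact permutation p = 0.034, adjusted p = 0.113). None of the 10 passed after adjustment, and at D5 and D6 the differences of these 3 ratios were at most 0.25 in size. The share of Dpysl4 in the family total was 14.5 ± 1.29% at D4H8 and 6.41 ± 2.27% with GSKJ4 (SD, n = 3).

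Treated cultures were also set against an earlier untreated stage, D4 for D4H8+GSKJ4 and D5+GSKJ4, and D5 for D6+GSKJ4. At D4H8+GSKJ4 no member was called against untreated D4 by edgeR, where 1.08% of tested genes were called higher. Crmp1 was nearest, 2.85-fold higher (log2 1.51 ± 0.42, adjusted p = 0.0743), the 1 of 5 with an unadjusted p under 0.05 (2065 of 16225 genes were higher at that level), and DESeq2 called it (adjusted p = 0.00425). Dpysl4 was at −0.46 ± 0.42 and Dpysl5 at −0.23 ± 0.35, below their D4 levels but within the spread.

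At D5+GSKJ4 all 5 members were higher than at D4, where 16% of tested genes were. The folds were 24.2 for Crmp1, 8.03 for Dpysl3, 4.94 for Dpysl4, 3.58 for Dpysl2 and 3.36 for Dpysl5. At D6+GSKJ4, 4 of 5 were higher than at untreated D5, where 15.3% of tested genes were, with 2.59-fold for Crmp1, 2.06-fold for Dpysl5, 1.97-fold for Dpysl3 and 1.68-fold for Dpysl4. Dpysl2 was 1.55-fold higher (adjusted p = 0.0526) and was called with the replicate number as a block (adjusted p = 0.00399), the same-numbered libraries of these groups deviating together as well. In one fit over all 21 libraries Dpysl4 was not called (adjusted p = 0.115), which leaves 3 of 5. These comparisons share their D4 or D5 controls with those above.

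Around the family, 43 genes of the semaphorin and CRMP pathway were followed. From D4 to D6, 31 of 43 rose and 6 fell, and 32.9% and 31% of all tested genes were called in these directions. Their median log2 fold change was 1.56, beside −0.04 over all tested genes. From D4 to D4H8, 12 rose and 1 fell, where 4.06% of all tested genes were called higher and 56 of 17519 lower. From D4H8 to D5, 22 rose and 1 fell, where 17.2% were called higher and 1842 genes lower. From D5 to D6, 25 rose and 4 fell, where 19.2% were called higher and 2647 genes lower.

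Of the 6 class 3 semaphorins, the secreted ligands, 4 rose from D4 to D6 and 1 fell. Sema3d rose by 5.33 ± 0.28 log2 units and Sema3c by 2.38 ± 0.27. All 7 receptor genes rose, led by L1cam, a neuronal adhesion molecule and neuropilin partner, at 7.95 ± 0.22, and Plxna4, a plexin signalling subunit, at 6.46 ± 0.25. In FPKM, L1cam went from 0.387 ± 0.0404 at D4 to 90.5 ± 19.1 at D6 (SD, n = 3).

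Among 5 signal relays downstream of plexins, 2 rose and 1 fell: Mical1, an actin-oxidising enzyme, by 1.48 ± 0.18, and Rnd1, a small GTPase that binds plexins, at −2.20 ± 0.35. Of 9 kinase genes, which include those that phosphorylate CRMPs, 6 rose and 1 fell, with the Cdk5 activators Cdk5r1 (5.97 ± 0.22) and Cdk5r2 (5.50 ± 0.29) first in size. Of 13 binding partners, 9 rose and 3 fell. Tubb3, the neuronal beta-tubulin, rose by 5.23 ± 0.32 and Kif5a, a kinesin heavy chain, by 5.11 ± 0.19.

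Both calpain genes, whose proteases cleave CRMPs, rose, Capn2 by 1.54 ± 0.11 and Capn1 by 0.84 ± 0.25. Dpys, the gene of the related enzyme dihydropyrimidinase, was called higher at D6 too, but it was at 0 to 0.03 FPKM at D4 and 0.15 to 0.41 at D6. It had at most 26 counts in any library. On the per-length scale the enzyme's RNA was thus far below that of any of the 5 CRMP genes at D6.

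With GSKJ4 at D4H8, 3 of 42 tested pathway genes rose and 2 fell, where 2.11% and 1.85% of all tested genes did. Nrp2, a semaphorin co-receptor, was at 1.04 to 1.64 FPKM against 3.61 to 4.19 (log2 −1.65 ± 0.23, adjusted p = 0.0127). Tubb2b, a beta-tubulin of newborn neurons, was at 52.5 to 91.4 FPKM against 144 to 199 (log2 −1.31 ± 0.23, adjusted p = 0.0235). Those higher were Sema3b (1.55 ± 0.34), Sema3e (1.14 ± 0.26) and Capn1 (1.13 ± 0.26). Without any 1 of the 3 untreated libraries 0 of these 42 genes were called, and each of the 3 higher calls was kept in 1 of the 6 fits that left out 1 library, the one without treated replicate 2. None of the pathway genes was called at D5 or D6, and averaged over stages Nrp2 and Tubb2b were called lower. With 1 library left out, Nrp2 kept that call in 18 of 18 fits and Tubb2b in 8.

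The genes whose course over all 21 libraries was most like that of each member were sought among 10142 genes by Pearson's r of log2 CPM, given here as a description. The libraries share their stages, so r is high throughout. For Crmp1 these were Apc2, Smpd3 and Ngfr (r from 0.996 to 0.997), and for Dpysl3 Mllt11, Tcaf1 and Trim36 (all 0.996). For Dpysl5 they were Sbk1, Sh3pxd2b and Tmem151b (0.991 to 0.993), for Dpysl4 Apba2, Dbn1 and Brsk2 (0.986 to 0.987), and for Dpysl2 Sox11, Map1b and Trim36 (0.981 to 0.982). Over the 12 untreated libraries alone, 1 of the 3 remained for Crmp1 (Ngfr), Dpysl3 (Trim36) and Dpysl5 (Sbk1), and 0 for Dpysl2 (Tmem8b, Ncan and Lpin1 in their place) and Dpysl4 (Tbc1d9, Tle1 and Celf3).

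Among the members, deviations of scaled log2 CPM from the group means also moved together across the 21 libraries, and members of a library share its culture. Pearson's r of these deviations was 0.964 for Crmp1 and Dpysl5, 0.911 for Dpysl4 and Dpysl5 and 0.909 for Crmp1 and Dpysl4. D4H8+GSKJ4 replicate 1, well above the rest of its group in these genes (Crmp1 at 16.93 FPKM against 5.00 and 5.38), is included. The r without that library was not computed. Dpysl2 followed the others least, with r from 0.243 with Dpysl4 to 0.633 with Dpysl3. Apart from D4, replicate 1 had the highest Crmp1 FPKM of its group in each of the 6 groups.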

How the data were processed

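The authors purified poly-A RNA. Their reads were trimmed with Fastp, with those under 75 bases removed, and mapped to mm10 by Hisat2. HTSeq-count gave the gene counts, and its strand setting was not given in the sources used here. The deposited raw count table and the deposited FPKM table cover 21 libraries. The FPKM could be rebuilt from counts and gene lengths to within 0.005. Symbols, positions and transcripts came from GENCODE M21 (GRCm38), promoters from RefSeq. Counts of all 21 replicate pairs within groups differed by more than sampling noise.

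The main test was edgeR's quasi-likelihood test (edgeR 4.0.16, R 4.3.3) on the counts, with TMM scaling, low genes removed by filterByExpr (minimum count 10), and p-values adjusted by Benjamini-Hochberg across the tested genes at a threshold of 0.05. Stage contrasts used 12 untreated libraries, GSKJ4 contrasts 6 and contrasts between stages 18. Log2 CPM used a prior count of 2. Ratios and shares within a library were tested by exact permutation (numpy 2.4.6). Errors are SE for fitted log2 differences and SD for levels. The pipeline was tested on simulated data.

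Replicate numbers are those of the column names. Deviations from group means of same-numbered libraries correlated at 0.663, 0.316 and 0.446 between D6 and D6+GSKJ4, and at 0.314, 0.201 and 0.216 between D5 and D6+GSKJ4, all over 0.1, so the block is given there. So did those between D4H8 and D5 (0.314, 0.147 and 0.136) and between D5 and D6 (0.310, 0.144 and 0.226), where the block changed no call of a member. At D4H8, where the block is given as an alternative, the 3 values were 0.440, 0.0731 and 0.255, and at D5 they were 0.223, 0.0384 and 0.209.

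The 5 members, the pathway and marker lists and the tests were chosen with earlier results of these data known. By rule, named pathway genes were those called from D4 to D6 or in a GSKJ4 contrast that were, within their role, the 2 with the largest absolute log2 fold change in that contrast, and likeness named the 3 genes of highest r with a mean of at least 10 CPM, predicted genes and members left out. Alternatives were DESeq2 1.42.0, RLE and upper-quartile scaling, no filter, the replicate block, one fit over all 21 libraries, other pseudocounts and each library left out.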

Additional observations from a re-analysis of the deposited data

How the results depend on the processing

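The number of members called moved most with GSKJ4. At D4H8 it was 1, and 3 with no filter, DESeq2 or one fit over all 21 libraries, 4 with the replicate block and 0 to 4 with 1 library left out. For the mean effect over stages it was 1, and 4 with no filter or the replicate block and 0 to 3 with 1 library left out. For the D5 minus D4H8 effect it was 0, and 1 with no filter, the replicate block or DESeq2 and 0 to 1 with 1 library left out. For the D6 minus D4H8 effect it was 0, and 3 with no filter or the replicate block, 1 with upper-quartile scaling, DESeq2 or one fit, and 0 to 2 with 1 library left out. For D4H8+GSKJ4 against D4 it was 0, and 1 with no filter, the replicate block, DESeq2 or one fit and 0 to 1 with 1 library left out. For D4H8 against D4 and for D6 against D5 it was 5, and 3 with one fit, and with 1 library left out 3 to 5 and 4 to 5. For D5 against D4H8 it was 5, and 4 with one fit. For D6+GSKJ4 against D5 it was 4, and 3 with one fit, 5 with no filter, the replicate block or DESeq2 and 4 to 5 with 1 library left out. The cause of these moves was not tested.

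With 1 library left out, differences that had not been called changed sign. These ran from -0.33 to 0.12 for Dpysl2 at D5, and at D6 from -0.39 to 0.0481 for Crmp1, -0.27 to 0.18 for Dpysl2, -0.12 to 0.12 for Dpysl3, -0.23 to 0.0638 for Dpysl4 and -0.27 to 0.11 for Dpysl5. They ran from -0.20 to 0.90 for Crmp1 in the D5 minus D4H8 effect, -0.16 to 0.35 for Dpysl2 in the D6 minus D5 effect, and for D4H8+GSKJ4 against D4 from -0.12 to 0.40 for Dpysl3 and -0.87 to 0.0156 for Dpysl5. No called value changed sign in these fits.

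With the replicate block, the D6 call for GSKJ4 was 1 member, Crmp1, in place of 0. At D4H8, where same-numbered libraries did not all deviate together, the block gave adjusted p = 0.049996 for Crmp1, 0.00358 for Dpysl3, 2.22e-05 for Dpysl4 and 0.00294 for Dpysl5. All of these were under the threshold. The ratios over stages passed in 8 of 10 pairs with the block in place of 10.

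Over all genes, GSKJ4 at D4H8 gave 343 higher and 301 lower, against 1229 and 1058 with no filter, 1235 and 1039 with the block, 1136 and 838 with DESeq2 and 1058 and 990 with one fit. At D5 it gave 1 and 0, against 49 and 79 with no filter, 4 and 0 with the block, 29 and 40 with DESeq2 and 5 and 4 with one fit. At D6 edgeR gave 0 and 0, with 222 genes at an unadjusted p under 0.05, against 48 and 209 with the block and 0 and 1 with DESeq2. With no filter, the block and DESeq2 in turn, the D5 minus D4H8 effect went from 42 and 3 to 245 and 106, 143 and 42, and 158 and 78. In the same order, the D6 minus D4H8 effect went from 100 and 33 to 414 and 212, 304 and 187, and 291 and 289, the mean effect from 164 and 197 to 450 and 648, 506 and 609, and 549 and 543, and D4H8+GSKJ4 against D4 from 175 and 165 to 960 and 910, 617 and 657, and 857 and 835, with 1444 and 1012 in one fit. D4H8 against D4 gave 711 and 56, against 1055 and 264 with no filter and 413 and 9 with one fit, and D5 against D4H8 gave 3019 and 1842, against 2064 and 1154 with one fit. Upper-quartile scaling turned D6 against D5 from 3369 higher and 2647 lower to 2912 and 3251, and D6 against D4 from 5761 and 5427 to 5144 and 6342, with the median of all genes at -0.104 and -0.191.

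The counts over all genes also turned on single libraries. Without untreated D4H8 replicate 1, 2 or 3, GSKJ4 at D4H8 gave 2 higher and 41 lower, 3 and 47, and 3 and 44, and without treated replicate 2 it gave 998 and 748. D4H8+GSKJ4 against D4 gave 0 and 25, 0 and 11, and 1 and 15 without D4 replicates 1, 2 and 3, and 17 and 67, 628 and 474, and 365 and 242 without treated replicates 1, 2 and 3. The mean effect ranged from 59 and 95 without D4H8 replicate 1 to 218 and 389 without D4H8+GSKJ4 replicate 1, the D5 minus D4H8 effect from 16 and 0 to 159 and 13 and the D6 minus D4H8 effect from 35 and 5 to 234 and 50 without the same libraries. D4H8 against D4 gave 341 and 9 without D4H8 replicate 1, and 384 and 9 and 467 and 20 without D4 replicates 1 and 2. GSKJ4 at D5 gave 6 and 0 without D5 replicate 3. D5+GSKJ4 against D4 gave 1824 and 1171 without D4 replicate 2, against 2597 and 2025, and D6+GSKJ4 against D5 gave 1609 and 832 and 1673 and 1147 without D5 replicates 2 and 3, against 2515 and 1745.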
